A study of Mus musculus with 54 samples.

Results

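The genes described here are 10 members of the Bcl2 family, which decides whether a stressed cell keeps its mitochondria intact or dies by apoptosis. They were chosen by name, with earlier results of these data known: the survival genes Bcl2, Bcl2l1 (Bcl-xL), Bcl2l2 (Bcl-w) and Mcl1, the effectors Bax and Bak1, and the BH3-only genes Bcl2l11 (Bim), Bbc3 (Puma), Pmaip1 (Noxa) and Bid. All 10 were found among the 21631 protein-coding genes of the mouse annotation (RefSeq, GRCm38.p6, the assembly of mm10) on the autosomes and X. Survival proteins hold the effectors and the BH3-only proteins in check. BH3-only proteins are produced or activated under stress, and once Bax and Bak1 are set free they open the outer mitochondrial membrane. Gemcitabine, a nucleoside analogue that stalls DNA replication, kills cells largely through this route, and pancreatic cancer cells often lean on Bcl-xL and Mcl1.

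The Hi-C samples came from mouse pancreatic cancer cells labelled as primary tumor. The parental cells, labelled WT, had received DMSO, and the resistant cells, labelled gemcitabine resistant, had been selected with rising drug and received gemcitabine in DMSO, with 3 samples per condition. Resistance and drug treatment cannot be told apart in these samples. For the Hi-C samples the drug is doxorubicin in the series text and gemcitabine in the sample labels, which were followed. Hi-C records which stretches of DNA lie close together in the nucleus. Each condition had 1 deposited list of loops and 1 of topologically associating domains. A loop joins a pair of 5 kb bins, called anchors, that touch more often than their distance predicts, and a domain is a stretch that mostly contacts itself. Because replicates were not listed apart, no difference between conditions has a replicate error or a test, and none is called a change. The calls hold no expression values, so whether the cells express these genes was not measured here.

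Loops with an anchor within 50 kb of a gene body were collected, which was the rule for choosing them, and those with an anchor within 5 kb of either gene end were marked. Where the other list held a loop with each anchor at most 10 kb away, the loop was taken as shared by both lists, and otherwise as parental-only or resistant-only. Within 50 kb the family had 17 of the 6829 parental loops and 19 of the 7169 resistant loops. Of these, 11 parental loops (64.7%) and 10 resistant loops (52.6%) were found in both lists, beside 37.2% and 35.4% of the whole lists. There were thus 6 parental-only and 9 resistant-only loops. At least 1 loop within 50 kb, shared or not, was listed for 9 members in parental cells and for 8 in resistant cells. The shares of all protein-coding genes were 60.4% and 61.5%. All 10 members had such a loop in either list, beside 74.8% of all genes. Bcl2, Bcl2l1 and Bak1 had more resistant-only than parental-only loops within 50 kb, which is 3 members beside 27.9% of all genes. Mcl1 and Bid had more parental-only loops, which is 2 members beside 26.5%.

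Within 5 kb of a gene end there were 7 parental and 10 resistant loops. Of these, 5 parental loops (71.4%) were found in both lists, beside 37.2% of the whole parental list. Among the resistant loops it was 4 of 10, beside 35.4% of the whole resistant list. The resistant share was thus near that of its whole list, and the parental share was above that of its own. The loops at gene ends belonged to Bcl2, Bcl2l1, Bax, Bak1 and Bcl2l11. So 5 of the 10 members had a loop at an end in either list, where 33.9% of all genes did. By list, 4 members had one in parental cells (23.3% of all genes) and 5 in resistant cells (23.8%). More resistant-only than parental-only loops were listed at Bcl2, Bcl2l1 and Bak1, which is 3 members beside 11.8% of all genes. Bax alone had more parental-only loops, beside 11.3% of all genes. Among the lower-p loops of each list this order turned, with 1 member leaning to resistant cells and 2 to parental cells, and with 3 resistant-only and 4 parental-only loops at the ends. Mcl1, Bcl2l2, Bbc3, Pmaip1 and Bid had no loop at an end in either list. Every one of the loops at a gene end lay inside 1 domain of its own list, where 93.4% of all parental and 93.1% of all resistant loops did.

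**Figure D1:**
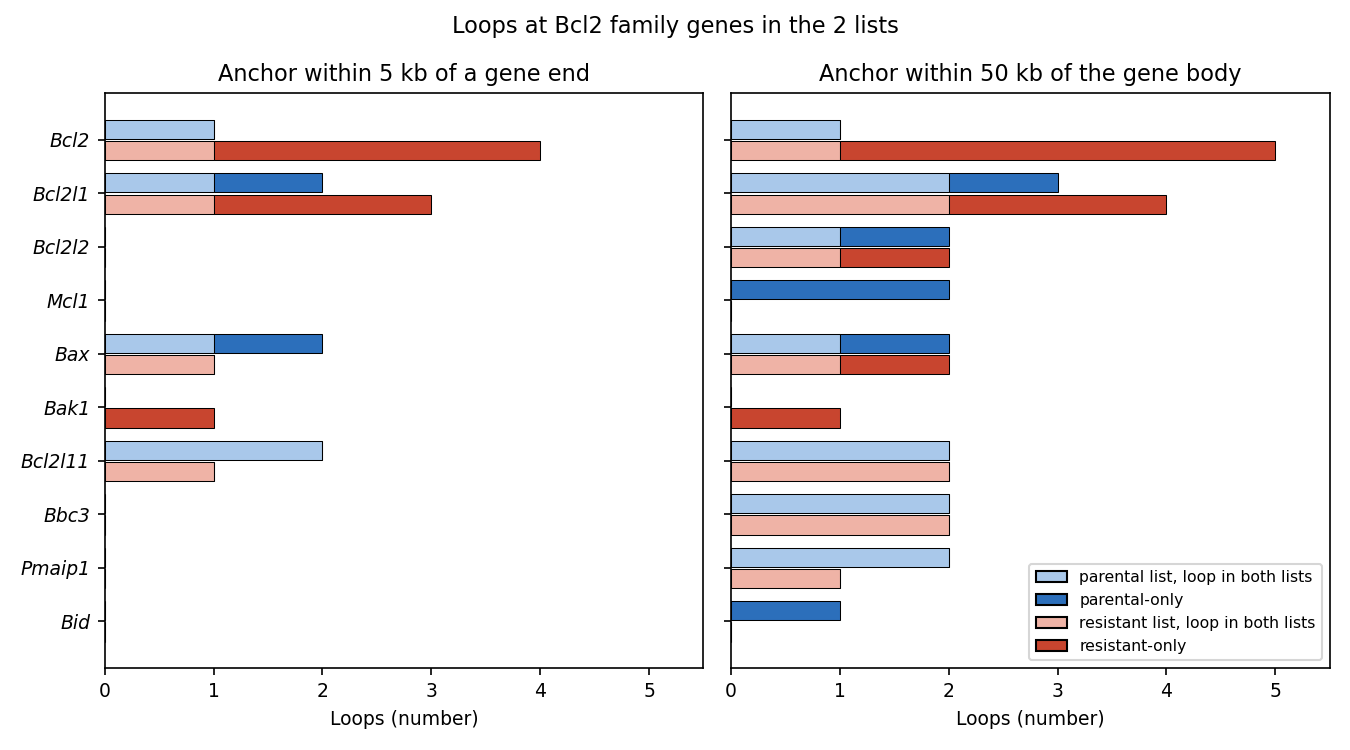
Number of loops (x axis) at each gene with an anchor within 5 kb of a gene end (left) or within 50 kb of the gene body (right), split into loops found in both lists (light) and in 1 list (dark). Bcl2 had 1 parental and 4 resistant loops at its ends, and Mcl1 had 2 loops within 50 kb in the parental list and 0 in the resistant list.

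Bcl2, the founding survival gene of the family, had the largest difference between the lists. The gene spans 176.1 kb on chromosome 1 (106538176 to 106714290, minus strand), and its start lies beside Kdsr, an enzyme of sphingolipid synthesis. The parental list held 1 loop here, of 205 kb, from the bin at 106715001 to 106720000 just upstream of the start to a bin at 106510001 to 106515000, past the other end of the gene (caller's p 1.63e-07). This loop stood in the resistant list at identical bins (caller's p 0.000263). The resistant list added 3 loops from the same start region. The longest, of 295 kb, reached a bin at 106420001 to 106425000 near the domain border (caller's p 1.63e-06). Another, of 175 kb, joined the start to the other end of the gene at 106540001 to 106545000 (caller's p 0.00137). The third, of 80 kb, ran from the bin holding the start, 106710001 to 106715000, to 106630001 to 106635000 inside the gene (caller's p 0.000287). A further resistant-only loop of 75 kb lay wholly within the gene body (caller's p 0.00178) and touched neither end.

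In all, Bcl2 thus had 3 resistant-only and no parental-only loops at its ends, and 4 and none within 50 kb. A difference of 3 or more toward resistant cells at gene ends was seen for 16 of 21631 genes (0.074%), and for 0.165% of the 2427 genes with bodies over 100 kb. Within 50 kb of the body 1.77% of all genes had such a difference, and 3.75% of those with bodies over 100 kb. The cut of 3 equals the difference of Bcl2 at its ends, and Bcl2 was the member with the largest difference. These shares therefore do not measure how unusual the family or Bcl2 is. For all 3 loops the parental list had an anchor within 10 kb of the anchor at the start. It had none that close to the far anchor. At the start the parental bin was identical for the 295 and 175 kb loops. For the 80 kb loop it was the adjoining bin. In order of caller's p the 3 loops stood at 21.8%, 54.5% and 66.6% of the resistant list, so only the 295 kb loop was in its stronger part. Among the lower-p loops of each list alone the difference at Bcl2 was 0. The 175 and 80 kb loops then dropped out, and the 295 kb loop was the only resistant-only loop left at the ends. The 205 kb loop then remained in the parental list only. The other loop of the parental domain lay outside the gene, on the Serpinb5 side (70 kb, caller's p 2.6e-05).

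The promoter window of Bcl2, from 250 bases before to 50 after the annotated start (RefSeq, GRCm38.p6), is shown because it lies inside the anchor bin of the 80 kb resistant-only loop. The nearest parental anchor began 461 bases away from it. Its GC content was 76.0%, and it held no match to either motif searched, so no letters are in capitals.
Bcl2, chr1:106714241-106714540, minus strand: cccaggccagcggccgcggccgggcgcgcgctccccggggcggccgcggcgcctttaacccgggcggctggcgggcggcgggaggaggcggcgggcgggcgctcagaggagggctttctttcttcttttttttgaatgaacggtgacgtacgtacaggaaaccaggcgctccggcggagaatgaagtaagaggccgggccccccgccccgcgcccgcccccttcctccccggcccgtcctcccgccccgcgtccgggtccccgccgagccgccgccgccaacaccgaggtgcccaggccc

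The motifs were a CTCF-like core, after the factor that holds many loop anchors, and TGTTTAC, the core bound by forkhead factors such as Foxa1, both searched on both strands. Matches to the motifs did not overlap each other. Of all 32585 promoter windows, 2.44% held the former and 3.67% the latter. Of the 14 windows of 9 members, 2 held the CTCF-like motif and 2 the forkhead motif. Several windows of 1 gene can overlap, and a match is not a bound site. Pmaip1 had no window.

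Bcl2l1, which encodes Bcl-xL, had at its ends 1 loop in both lists, 1 in parental cells alone and 2 in resistant cells alone. The gene covers 75.1 kb of chromosome 2 (152758732 to 152833803, minus strand) and ends beside Cox4i2 and Id1, which encodes an inhibitor of helix-loop-helix transcription factors. A 135 kb loop from its start (anchor 152830001 to 152835000) to a bin at 152695001 to 152700000 was found in both lists (caller's p 4.11e-07 parental, 2.6e-05 resistant). The same distal bin was joined to the Id1 bin, 152740001 to 152745000, in both lists as well (45 kb, caller's p 1.03e-05 and 8.12e-06). A 90 kb loop that joins the Bcl2l1 start to the Id1 bin was listed in parental cells alone (caller's p 4.1e-08, at 9.02% of the list). Its 2 anchors were both in use in the resistant list. The resistant list had 2 other loops at the gene, 1 of 45 kb from the start region into the body (caller's p 1.23e-05) and 1 of 15 kb at the far end, from Cox4i2 (caller's p 0.00192). The difference at the ends was 2 resistant-only against 1 parental-only loop, and it was 0 with loops over 15 kb alone and among the lower-p loops of each list.

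The promoter window of Bcl2l1 that lies in the anchor of the shared 135 kb loop and of the parental-only loop to Id1 is shown with its CTCF-like match, at the transcription start, in capitals. The next window upstream lay in the same bin and held no match.
Bcl2l1, chr2:152830668-152830967, minus strand: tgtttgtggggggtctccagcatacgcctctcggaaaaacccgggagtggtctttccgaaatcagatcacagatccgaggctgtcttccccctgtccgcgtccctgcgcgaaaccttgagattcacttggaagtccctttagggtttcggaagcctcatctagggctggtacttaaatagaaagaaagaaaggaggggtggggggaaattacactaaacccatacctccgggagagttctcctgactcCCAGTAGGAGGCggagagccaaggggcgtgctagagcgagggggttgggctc

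Bcl2l2 (Bcl-w; chromosome 14, 54883366 to 54890858, plus strand) had no loop at its ends and 2 in each list within 50 kb. A 35 kb loop from its neighbours Pabpn1 and Slc22a17 to Il25, Cmtm5 and Myh6, the heart myosin gene, was in both lists (caller's p 3.03e-07 parental, 2.78e-06 resistant). From the same Pabpn1 anchor the resistant list had a 110 kb loop to Ngdn (caller's p 1.07e-06). The parental list instead had a 95 kb loop from the other side of Bcl2l2 to the Myh6 bin (caller's p 3.85e-05), which passes over the gene.

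Mcl1, a survival gene whose protein turns over quickly, lay in a domain with loops in the parental list and none in the resistant list. It spans 6.2 kb of chromosome 3 (95656944 to 95663179, plus strand), in a 360 kb domain with the same borders in both lists. The parental list had 4 loops inside this domain and the resistant list had 0. Both loops within 50 kb of Mcl1 left the bin at 95680001 to 95685000 by Adamtsl4, the next gene. They ran 85 kb (caller's p 3.24e-07) and 55 kb, to Ecm1 and Tars2 (caller's p 0.000892). The other 2 spanned 60 kb (caller's p 4.3e-05) and 255 kb (caller's p 0.0015), and the 255 kb loop passed over Mcl1. For those 2 at Adamtsl4, the best-matching resistant loop had anchors up to 280 and 310 kb off, taking the larger of the 2 anchor distances. Among the 2501 parental domains with a counterpart in the resistant list, 8 (0.32%) had at least 4 parental loops and no resistant loop inside. Of the 344 with at least 4 parental loops, 2.33% had no resistant loop. The reverse, at least 4 resistant loops and no parental loop, held for 9 of the 2501 (0.36%). No Mcl1 end was an anchor in either list.

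**Figure D2:**
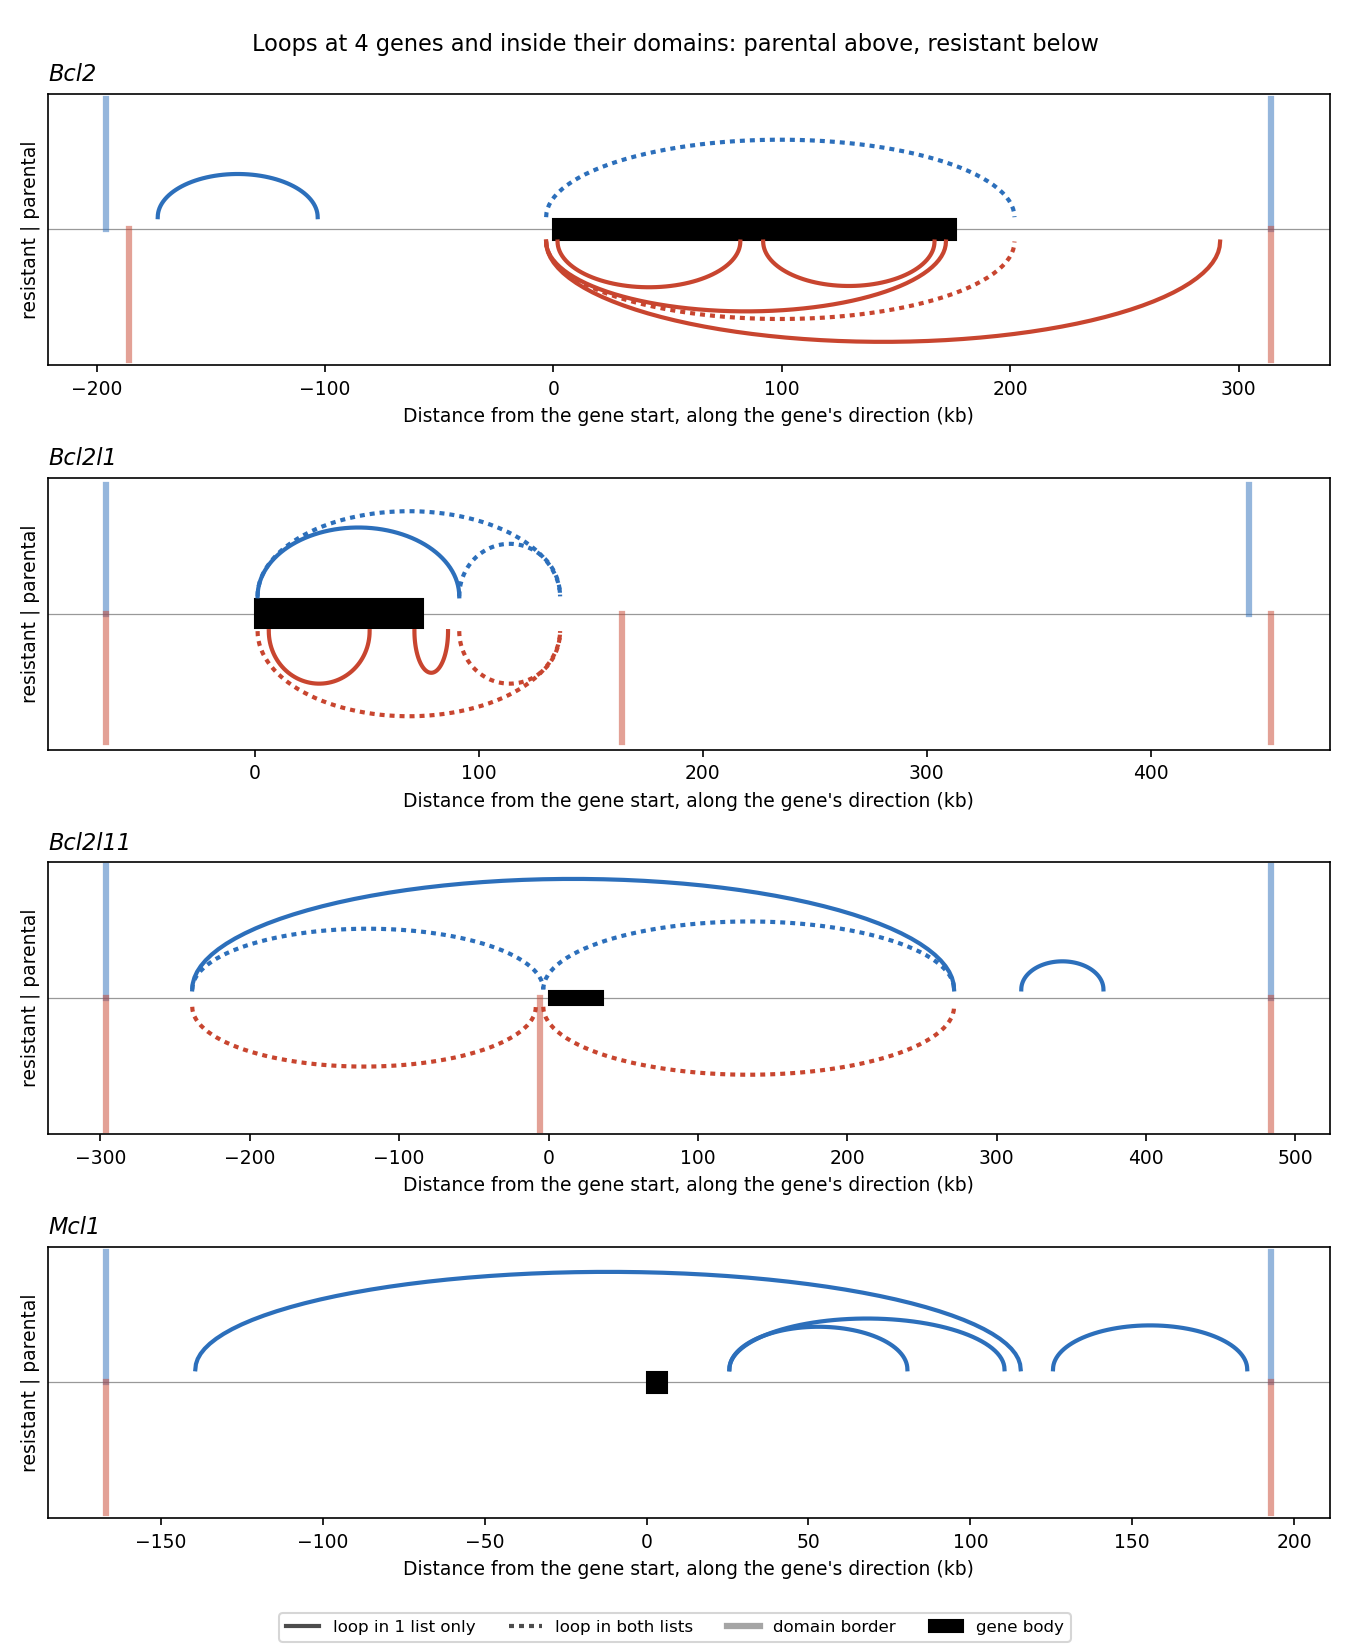
Loops at Bcl2, Bcl2l1, Bcl2l11 and Mcl1 and inside their domains, drawn as arcs over the distance from the gene start in kb (x axis), with parental loops above and resistant loops below the gene. Dotted arcs were found in both lists, solid arcs in 1 list, and thick vertical bars are domain borders. The 3 resistant-only loops from the start of Bcl2, the resistant border beside the start of Bcl2l11 and the 4 loops of the parental Mcl1 domain can be seen.

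Bax and Bak1 encode the effectors that form the pores. Bax (chromosome 7, 45461695 to 45466903, minus strand) had an anchor just upstream of its start, at 45470001 to 45475000 and next to Dhdh, in both lists. From there a loop to Sec1 and Ntn5 was shared (220 kb with caller's p 0.000376 in the parental list, 210 kb with caller's p 0.00236 in the resistant list). Its far anchors lay 10 kb apart, at the limit of the tolerance. The parental list also had a 45 kb loop from the Bax anchor to Tulp2, Nucb1 and Ppp1r15a, a stress-induced phosphatase subunit (caller's p 4.71e-06). In the resistant list the adjoining bin, 45475001 to 45480000, looped 110 kb to Bcat2, an enzyme of branched-chain amino acid breakdown (caller's p 4.17e-06). That bin was just beyond 5 kb of Bax, so Bax had 1 parental-only and no resistant-only loop at its ends and 1 of each within 50 kb. The Bax domain, with 61 protein-coding genes, held 4 parental and 8 resistant loops.

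Bak1 (chromosome 17, 27019812 to 27028627, minus strand) had 1 loop, resistant-only. It joined the bin upstream of the Bak1 start, 27030001 to 27035000, to Itpr3, a calcium channel of the endoplasmic reticulum, and Uqcc2 over 95 kb (caller's p 2.6e-05). No parental loop came within 50 kb of Bak1. The parental list did use the Itpr3 region as an anchor, in a 190 kb loop to Kifc5b, Phf1 and Cuta that passed over Bak1 (caller's p 2.19e-05).

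Bcl2l11, which encodes Bim, had its loops at the start in both lists and a domain border beside the start in the resistant list alone. The gene lies at 128126038 to 128162547 of chromosome 2 (plus strand), and its start touches the end of the neighbouring gene Acoxl. In the parental list 3 bins were joined in every pair. The bin upstream of the gene start, 128120001 to 128125000, looped 275 kb downstream to 128395001 to 128400000 (caller's p 6.63e-09, at 5.17% of the list). It also looped 235 kb upstream to 127885001 to 127890000 (caller's p 7.21e-05). A 510 kb loop joined the outer bins to each other over the gene (caller's p 5.17e-09). In the resistant list the downstream loop had the same bins (caller's p 2.19e-05). The upstream loop ended 5 kb earlier, at 128115001 to 128120000, which is outside the 5 kb limit of the gene end (230 kb, caller's p 0.000923). The 510 kb loop had no resistant counterpart.

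The resistant border fell at position 128120000, between the resistant anchors of the upstream and the downstream loop and 6.0 kb from the gene. The parental list had 1 domain here, from 127830000 to 128610000 (780 kb). The resistant list had a domain of 290 kb with most of Acoxl and a domain of 490 kb with Bcl2l11, with the same outer borders. The nearest parental border was 290 kb away. Bcl2l11 was the 1 member with a resistant-only border within 10 kb of its body, beside 2.68% of all genes, and no member had a parental-only border that close, beside 2.06%. The authors' separation score of the resistant domain of Bcl2l11, -0.165, was higher than 81.2% of the resistant list. The score of the parental domain, -0.569, was higher than 28.7% of its list. Neither the meaning of a high score nor the border it belongs to is stated in the files. Read as left-border scores, these values belong to different borders, 128120000 and 127830000. At the right border, 128610000 in both lists, the scores were -0.677 in the resistant and -0.63 in the parental list, so the order was the opposite. The promoter window nearest to this border and anchor, 788 bases from the anchor bin, is printed with its forkhead match, which reads on the opposite strand, in capitals.
Bcl2l11, chr2:128125788-128126087, plus strand: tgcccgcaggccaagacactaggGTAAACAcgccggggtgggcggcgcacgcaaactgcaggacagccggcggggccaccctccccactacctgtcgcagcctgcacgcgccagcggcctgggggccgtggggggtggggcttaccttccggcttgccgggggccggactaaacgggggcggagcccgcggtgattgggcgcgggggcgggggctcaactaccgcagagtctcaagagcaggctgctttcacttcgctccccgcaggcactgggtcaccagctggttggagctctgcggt

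Bbc3, which encodes Puma and is a classical target of p53, lay close to a border and had no loop at its ends. The gene is at 16308398 to 16318334 of chromosome 7 (plus strand), 28.4 kb from the nearest parental border and 18.4 kb from the nearest resistant one. Both loops within 50 kb were found in both lists and lay on the far side of that border or across it. A loop between Meis3 and C5ar1, the receptor of complement C5a, spanned 65 kb in the parental list (caller's p 2.23e-06) and 75 kb in the resistant list (caller's p 6.14e-09, at 3.84% of the list). The other joined adjacent bins at Ccdc9 over 5 kb and was among the weakest calls of both lists (caller's p 0.0363 and 0.0494). The Bbc3 window below is shown because both motifs occur in it, with the forkhead match first and the CTCF-like match, on the opposite strand, second. It lay 25011 bases from the nearest loop anchor, so no loop was listed at it.
Bbc3, chr7:16310011-16310310, plus strand: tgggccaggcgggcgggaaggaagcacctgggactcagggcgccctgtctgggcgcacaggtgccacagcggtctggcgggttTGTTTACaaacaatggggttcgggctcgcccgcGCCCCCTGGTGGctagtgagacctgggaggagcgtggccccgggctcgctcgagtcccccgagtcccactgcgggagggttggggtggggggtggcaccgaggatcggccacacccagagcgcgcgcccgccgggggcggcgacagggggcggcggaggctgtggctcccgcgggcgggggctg

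Pmaip1, which encodes Noxa, and Bid complete the BH3-only genes. Pmaip1 (chromosome 18, 66458604 to 66465558) sat under a 105 kb loop that started and ended in its flanks, with identical bins in both lists (66410001 to 66415000 and 66515001 to 66520000). It had the lowest caller's p of the family in the parental list, 3.67e-10 (1.51% of the list), against 7.23e-07 in the resistant list (17.9%). A loop from Ccbe1 ended at 66405001 to 66410000 in the parental list, just inside the 50 kb limit (115 kb, caller's p 0.000724). In the resistant list it ended 5 kb farther off, just outside the limit (110 kb, caller's p 0.00102). Pmaip1 thus counted 2 parental and 1 resistant loop with every loop found in both lists. Bid (chromosome 6, 120893119 to 120917062, minus strand) had 1 loop within 50 kb, parental-only, of 35 kb (caller's p 0.000546). Its other anchor was at Bcl2l13, the neighbouring gene and itself a Bcl2 relative.

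For the loops found in both lists the parental p was the lower in 9 of 11. Over all 2541 parental loops found in both lists the parental p was lower in 52.4%. The 2 exceptions were the Bbc3-side loop from Meis3 and the loop from Id1 beside Bcl2l1. The widest gaps were at Bcl2l11 and Pmaip1 and at the 205 kb loop of Bcl2. A caller's p ranks loops within its own list, and the read depth of either list is unknown, so the pairs do not show weaker contacts in resistant cells. The pairs at Bcl2l1 share an anchor bin, as do the pairs at Bcl2l11, so they are not independent.

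**Figure D3:**
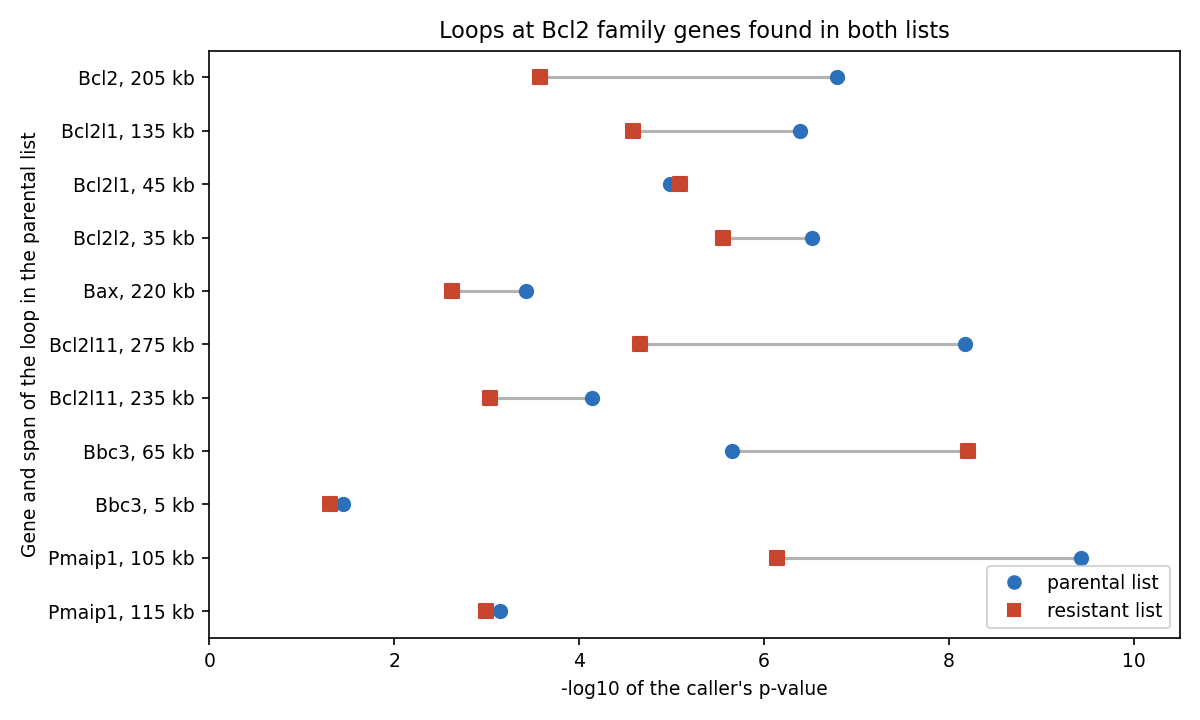
Caller's p-value on a -log10 scale (x axis) of the 11 parental loops at Bcl2 family genes found in both lists (circles) and of their resistant partners (squares), named by gene and parental span. The parental value is farther right for 9 of 11 loops, and the resistant value for 2, the Bbc3-side loop from Meis3 and the 45 kb loop at Id1.

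The domains of the family were mostly alike in the lists. Of the 10 parental domains, 9 had both borders within 20 kb of a resistant border, where 70.5% of all genes lay in such a domain. Of the 10 resistant domains 7 did, beside 66.0%. Bax, Bak1 and Mcl1 had identical domains of 860, 620 and 360 kb. Borders at Bcl2, Bcl2l2, Bbc3 and Pmaip1 differed by at most 10 kb. Counted per gene, the median domain size of the members was 510 kb in parental and 485 kb in resistant cells. Over all genes, counted the same way, it was 550 and 540 kb. Counted once per domain, the medians of the lists were 510 and 500 kb.

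The 3 members with a border outside the tolerance were Bcl2l11, Bcl2l1 and Bid. At Bcl2l1 the parental domain ran from 152390000 to 152900000 and held 21 protein-coding genes. The resistant domain started at 152670000 and held 6 genes. The nearest parental border, 230 kb away, was the right border at 152900000 that both lists had. The resistant domain before it started at 152380001, within 10 kb of the parental left border. The resistant list thus had an additional border inside the parental domain. The bin that both lists loop to the start of Bcl2l1, at 152695001, lay on the gene's side of this additional border. At Bid the right border was at 121260000 in the parental and at 121190000 in the resistant list, 70 kb apart. The Mcl1 domain carried a separation score above that of 99.9% of both lists (0.522 parental, 0.364 resistant) when the score was read as that of its left border. At its right border the scores were -0.144 and -0.294.

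**Figure D4:**
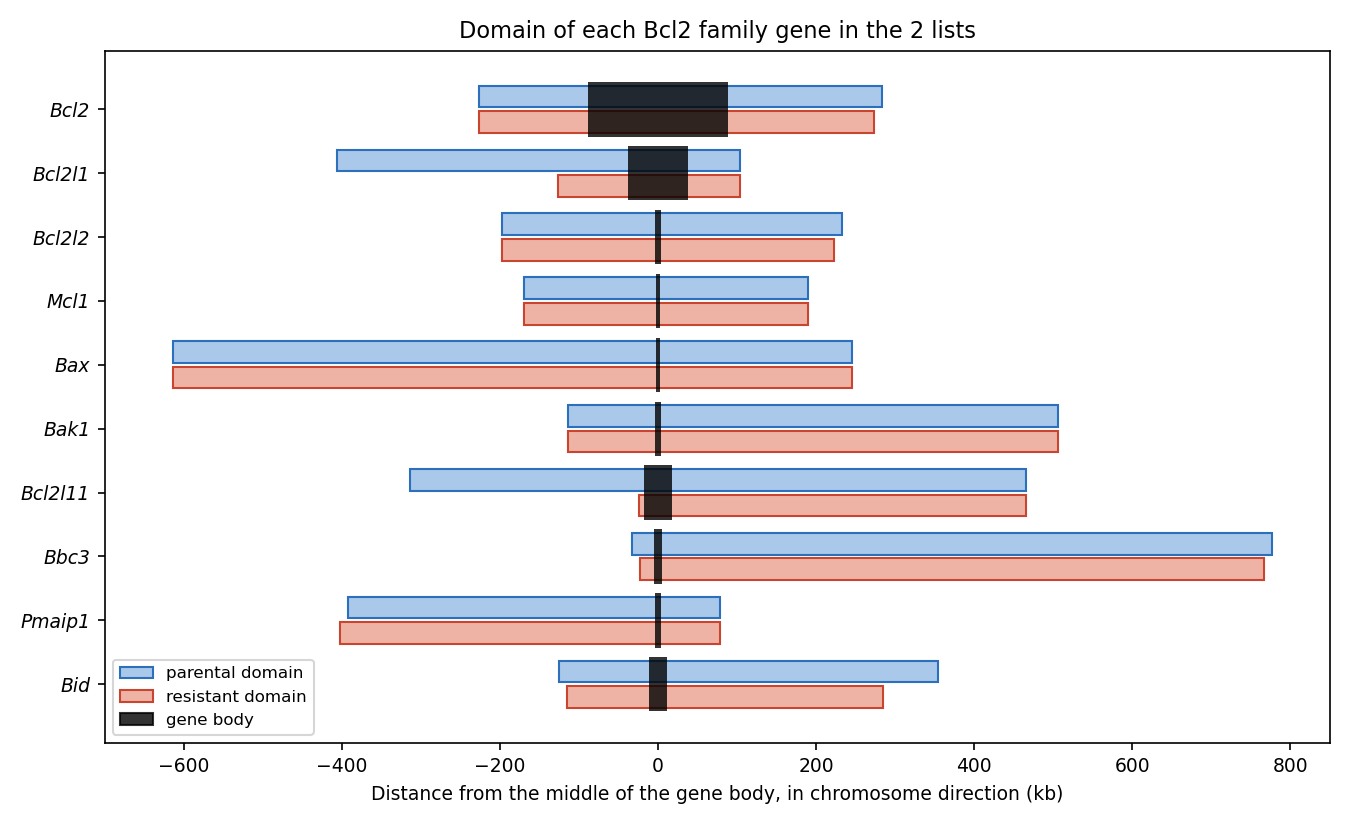
Domain holding each gene in the parental (upper bar) and resistant (lower bar) list, drawn over the distance from the middle of the gene body in kb (x axis), with the gene body in black. The resistant domains of Bcl2l1 and Bcl2l11 are 230 and 490 kb long, against 510 and 780 kb in the parental list.

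The wider apoptosis machinery was counted over 44 further genes, among them the other Bcl2 relatives, caspases and their inhibitors, and death receptors. A loop at a gene end was listed for 15 of them in either list (34.1%), where 33.9% of all genes had one. More resistant-only loops were listed for 6 (13.6%) and more parental-only loops for 4 (9.09%), beside 11.8% and 11.3% of all genes, and 34 had no difference. The median difference was 0 loops, as it was over all genes. None had 2 or more condition-specific loops. The resistant-only loops were at the BH3-only genes Bmf (to Bub1b, a spindle checkpoint kinase, caller's p 1.12e-05) and Hrk (to Rnft2 and Spring1, caller's p 4.04e-06), at Casp6, an executioner caspase (caller's p 6.14e-05), and at Endog, Aifm1 and Bcl2l15. The parental-only loops were at Cycs, which encodes cytochrome c (caller's p 3.59e-07), Vdac3, a channel of the outer mitochondrial membrane (caller's p 7.82e-08), Bik (caller's p 0.00819) and Bcl2l13. The Bcl2l13 loop is the one counted for Bid.

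The loop counts of Bcl2 at its ends, 1 in both lists, 3 resistant-only and none parental-only, were matched exactly by 2 other protein-coding genes. These were Wdtc1, with a body of 61.0 kb, and Nfatc2ip, with a body of 13.9 kb.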

How the data were processed

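The sources were 4 deposited Hi-C tables, listing loops and domains per condition. The other 48 samples (RNA-seq, ATAC-seq and ChIP-seq) were not analysed here. The submitters' processing notes name BWA, hg19 and mm10, and coordinates were read as mm10. The callers, their settings and any pooling of replicates are not stated in the labels or headers. The p-value of a loop and the separation score of a domain are the authors' own, per the file headers. No deposited p-value exceeded 0.0497. The scale of the score is not stated, and it was read as that of the left border.

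Members and lists were chosen with earlier results of these data known. Gene bodies, including strand from the promoter table, came from RefSeq GRCm38.p6, the assembly of mm10. An anchor bin counted when it overlapped the window around a gene end or body. The domain of a gene was the one holding most of its body, and borders within 20 kb were the same border. Shares of all 21631 genes were computed with the same steps, which had been tested on simulated data (Python 3.11.15, numpy 2.4.6, pandas 2.3.3). The rule for named genes took the members, genes at the other anchor of loops at a gene end, nearest neighbours in the domain, up to 10 apoptosis genes with 2 or more condition-specific loops, and up to 5 genes with the counts of the member of largest difference. As no apoptosis gene had 2, the 10 that leaned to a list are named. These, the genes at loops farther from an end, the loops inside domains beyond 50 kb, the counts of loops per domain, the motif TGTTTAC and the windows shown were chosen after the values were seen. Alternatives were other tolerances, windows and score borders, lists cut to equal length or to lower p, and loops over 15 kb. The CTCF-like motif was searched in promoter windows, since anchor bins need a genome sequence, which was not used here.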

Additional observations from a re-analysis of the deposited data

How the results depend on the processing

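Read depth is unknown and each condition has 1 list, so counts of loops in 1 list can move with depth, and no interval between cultures can be given. No paired analysis was possible because the lists hold no column per sample. At the gene ends the main counts were 2 parental-only and 6 resistant-only loops, and 5 parental and 4 resistant loops in both lists. In the whole lists 37.2% of parental and 35.4% of resistant loops were in both. The resistant-only count was thus near its whole-list share, and the parental-only count was below its own. With identical bins required there were 4 parental-only and 3 shared parental loops, and 10 and 7 within 50 kb, and 2 members leaned to parental cells. In the lower-p part of each list the counts at the ends were 4 parental-only, 3 resistant-only, 2 shared parental and 2 shared resistant loops. Within 50 kb there were then 5 resistant-only loops and 6 shared in each list, 1 member leaned to resistant cells and 2 leaned to parental cells. With gene ends required inside the bin each of the 4 classes held 1 loop, and with a window narrower than 5 kb there was 1 parental-only loop. A window of 100 kb gave 11 parental-only loops. Members leaning to parental cells numbered 2 within 50 kb of the body and 0 within 10 kb of an end. Both borders were matched in 9 parental and 7 resistant domains, and in 4 and 3 with no tolerance. Among the higher-scoring borders they were matched in 4 and 4, and among the lower-scoring borders, an alternative chosen after the data were seen, in 3 and 1. There a domain could count only when both its own borders lay in that part of its list. Most of the drop can thus come from domains left out, and these counts do not show poorer matching. Read as the score of the right border, the median score of the members was -0.45 in parental and -0.44 in resistant domains, against -0.38 and -0.30. The Bcl2 difference lay between 0 and 4 over 8 alternatives and was above 0 in 7 of them. The Bcl2l11 difference was 0, and -1 with identical bins required and among lower-p loops. At Bcl2, Bcl2l1, Bak1 and Bax, the members with a difference in the main count, it never turned from one list to the other. The other members had a main difference of 0 and so could not turn. Among these, Mcl1 moved to -2 and Bid to -1 within 50 kb of the body, and Bcl2l2 to 1 within 10 kb of an end.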
